A study of Mus musculus with 6 samples.

Results

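Krüppel-like factors are zinc finger transcription factors, and 10 of their genes were followed here over 6 lines of a mouse kidney cell line: Klf2, Klf3, Klf4, Klf5, Klf6, Klf7, Klf9, Klf10, Klf13 and Klf15. They were taken by name from the 18193 genes that the arrays' annotation names, and where several probe sets read a gene, the brightest on average stands for it. The cells were mpkCCD cells, an immortalised mouse line of the cortical collecting duct, the kidney segment where vasopressin controls water uptake through aquaporin 2 (gene Aqp2). One group was clone 2 alone, described as not expressing AQP2. The other was the 5 lines described as expressing it, clones 3, 9, 10 and 11 and the original cells. For 5 days all 6 lines had received 0.1 nM dDAVP, an analog of vasopressin, and no line without it was analysed here. Each line had a single array, and each clone came from 1 colony, so clonal traits, culture and array cannot be told apart, and the p-values measure only how the arrays spread.

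Proteins of this family bind GC-rich sites and CACCC boxes in promoters through 3 zinc fingers near the C-terminus and differ in the regions that recruit partners. Klf2, Klf4, Klf5, Klf6 and Klf7 are mostly activators that work with histone acetyltransferases, Klf3 recruits the corepressor CtBP, and Klf9, Klf10 and Klf13 bind the corepressor Sin3A. Klf15 is known for metabolic control by glucocorticoids. In epithelia Klf4 is known for growth arrest and differentiation and Klf5 for proliferation, and in the kidney Klf5 is known from the collecting duct and Klf15 from podocytes.

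The median signal of an array lay between 79.6 in clone 2 and 88.6 in clone 10. Epithelial markers were high in all lines, with a summed signal of 66290 in clone 2 and 76740 to 86740 in the expressing lines (4 of 4 genes past the filter described below). Principal cell markers summed to 8249 in clone 2 and to 16220 to 22690 in the expressing lines (9 of 10 past the filter). This sum includes Aqp2, by which the groups are described, and its genes did not all go the same way. Hsd11b2, Fxyd4, Scnn1g, Scnn1a and Gata3 were also lower in clone 2 than in every expressing line. Avpr2 and Scnn1b lay inside the expressing range, and Aqp3 was higher, with 191.9 in clone 2 and 96.4 to 150.0 in the expressing lines. None of 6 fibroblast markers and none of 4 of the loop of Henle and distal tubule passed it, nor did most intercalated cell (2 of 6 passed), proximal tubule (1 of 5) and endothelial or leukocyte markers (1 of 6). The sum for endothelial and leukocyte genes was 783.9 in clone 2 and 165.9 to 522.5 in the expressing lines, of which Cd68, the only one past the filter, gave 619.3 in clone 2. Proximal tubule markers summed to 267.4 in clone 2 and 932 to 1234 in the expressing lines. Most of this gap was Lrp2, the only one past the filter, with 115.6 in clone 2 and 808.7 to 1067 in the expressing lines. Intercalated cell markers summed to 1108 in clone 2 and 761.9 to 1102 in the expressing lines. The 2 past the filter went opposite ways. Atp6v1b1 had 949.3 in clone 2 and 413.0 to 687.3 in the expressing lines, and Aqp6 had 39.0 in clone 2 and 221.8 to 328.1 in the expressing lines. The part of such genes in the results below was not tested.

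The Krüppel-like factors differed in how much they varied over the lines. Klf3, Klf5 and Klf13 varied little among the expressing lines, the highest exceeding the lowest by 1.20, 1.17 and 1.17 times. Klf6, Klf7, Klf9 and Klf10 lay between, with ratios of 1.51, 1.23, 1.32 and 1.46, while the ratio was 2.78 for Klf2 and 5.19 for Klf4. Of the 10 genes, 9 passed the filter (a mean signal above 85.46, the median of all probe sets), and Klf15 did not. None of these 9 passed the test of clone 2 against the expressing lines (limma, Benjamini-Hochberg adjusted p under 0.05 over all probe sets). Of all 22518 probe sets tested, 2.49% passed. Without adjustment, 3 of the 9 had a p under 0.05, Klf2, Klf7 and Klf9, against 20.0% of all probe sets.

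The signal of clone 2 lay outside the range of the 5 expressing lines for 7 of the 9 genes. It lay above for Klf4 and Klf10, where 24.3% of all probe sets did so, and below for Klf2, Klf6, Klf7, Klf9 and Klf13, where 29.3% did. The median absolute log2 difference was 0.46 for the 9 genes and 0.27 for all probe sets tested. Their median difference was -0.26, beside -0.03 for all. A lower signal in a line cannot be told apart from fewer cells of a type that carry the transcript.

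**Figure D1:**
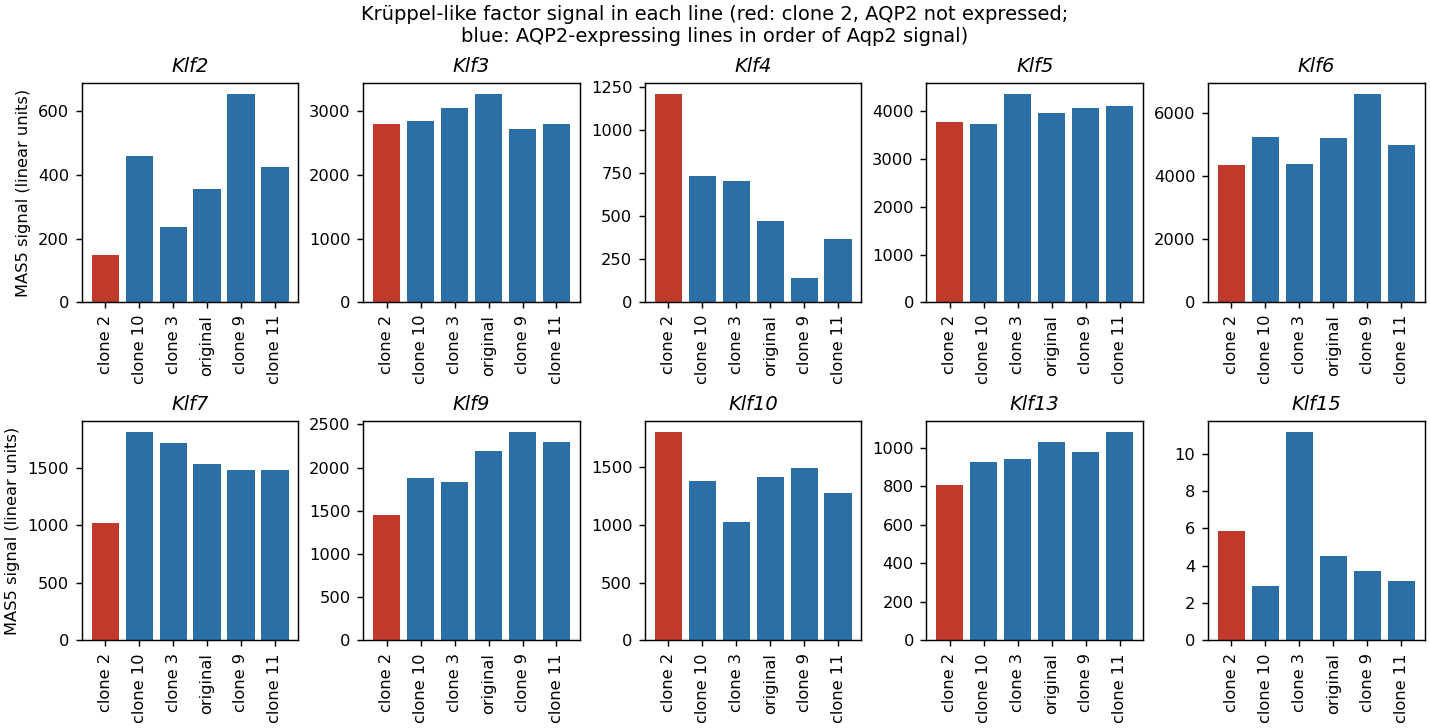
Signal of each Krüppel-like factor gene (MAS5 signal, linear units) in the 6 lines, 1 array each. The red bar is clone 2 and the blue bars are the expressing lines in order of their Aqp2 signal. Clone 2 is highest for Klf4 and Klf10 and lowest for Klf2, Klf6, Klf7, Klf9 and Klf13, and Klf15 stays under 12 signal units.

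Among the activators, Klf2, which is induced by fluid shear in endothelial cells, had the largest lower value in clone 2. Its signal was 147.1 in clone 2, against 235.5 in clone 3, 654.2 in clone 9, 459.4 in clone 10, 424.8 in clone 11 and 355.4 in the original cells. Clone 2 was lowest and clone 9 highest, and the groups did not overlap. The expressing lines averaged 425.9 ± 153.7 (SD, n = 5), 2.90 times clone 2, and the log2 difference was -1.35 (SE 0.416, 95% interval -2.29 to -0.41, limma adjusted p = 0.121). Over the alternatives tried it stayed negative, from -1.53 to -1.18, with an adjusted p between 0.0588 and 0.221. Klf2 had only 1 probe set.

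Klf4, which in skin and gut marks differentiating epithelium, ran the other way. Its signal was 1212 in clone 2, against 701.4 in clone 3, 141.9 in clone 9, 736 in clone 10, 368.9 in clone 11 and 470.7 in the original cells. Clone 2 stood above all expressing lines, and clone 9, the line highest in Klf2, was lowest. The mean of the expressing lines was 483.8 ± 245.6 (SD, n = 5), and clone 2 had 2.50 times that. The log2 difference of 1.48 was the largest in size of the 9 genes, but its error was also large (SE 0.680, 95% interval -0.05 to 3.02, limma adjusted p = 0.266). The other probe set of Klf4 gave the same order at the ends, with 443.1 in clone 2 and 79.0 in clone 9 (log2 difference 0.88, limma adjusted p = 0.459). Klf4 lies on chromosome 4, where 645 genes had a median difference of 0.19, whose part in its value was not tested.

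Klf7, known for its part in neuron growth and fat cell differentiation, was lower in clone 2, with little spread among the other lines. It had 1022 in clone 2, against 1714 in clone 3, 1482 in clone 9, 1816 in clone 10, 1482 in clone 11 and 1531 in the original cells. The 5 expressing lines lay close together (1605 ± 152, SD) and all well above clone 2. The log2 difference was -0.64 (SE 0.167, 95% interval -1.01 to -0.26, limma adjusted p = 0.0801). All 3 other probe sets of Klf7 had a negative difference too, of -0.53, -0.79 and -0.99. The last of them, named after its values were seen, was the only 1 of 29 Krüppel-like factor probe sets past the filter that passed the test, where 2.49% of all did, with 524.7 in clone 2, against 1121 in clone 3, 1092 in clone 9, 1170 in clone 10, 856.7 in clone 11 and 1093 in the original cells (limma adjusted p = 0.0388). Klf7 lies on chromosome 1, where the median log2 difference of 571 genes was -0.28, and the part of this chromosome-wide shift in the value of Klf7 was not tested.

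Klf6, known from the response of liver stellate cells to injury, and Klf5 differed little. Klf6 had 4361 in clone 2, against 4393 in clone 3, 6621 in clone 9, 5255 in clone 10, 4985 in clone 11 and 5205 in the original cells. Clone 2 was thus lowest, but clone 3 was close to it, while clone 9 stood highest, as for Klf2. The log2 difference was -0.26 (95% interval -0.70 to 0.17, limma adjusted p = 0.472), and the 4 other probe sets also gave negative values. Klf5 had 3782 in clone 2 and between 3745 and 4376 in the expressing lines, so the groups overlapped (log2 difference -0.10, 95% interval -0.39 to 0.19, limma adjusted p = 0.71).

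Klf3, the CtBP-binding repressor, was level. Its signal was 2802 in clone 2 and 2719 to 3274 in the expressing lines (log2 difference -0.06, 95% interval -0.39 to 0.26, limma adjusted p = 0.842). Its 5 other probe sets past the filter disagreed in sign, 3 being negative and 2 positive, and none was called.

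Of the Sin3A-binding members, Klf9 and Klf13 were lower in clone 2 and Klf10 was higher, none of them past the test. Klf9, a gene induced by thyroid hormone and glucocorticoids, had 1451 in clone 2, against 1835 in clone 3, 2416 in clone 9, 1876 in clone 10, 2294 in clone 11 and 2188 in the original cells. The groups did not overlap, and the expressing mean of 2122 ± 256.3 (SD, n = 5) was 1.46 times clone 2 (log2 difference -0.53, SE 0.181, 95% interval -0.94 to -0.12, limma adjusted p = 0.151). All 5 other probe sets past the filter had negative differences, and the 1 below it had 0.24, although in only 2 of the 5 did clone 2 lie below all expressing lines. With the mean of all 7 probe sets the difference was -0.31. Klf9 lies on chromosome 19, where 378 genes had a median difference of -0.23, whose part was not tested either.

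Klf13, first known as an activator of the chemokine gene Ccl5 in T cells, had 804.2 in clone 2, against 942.5 in clone 3, 975.6 in clone 9, 923.2 in clone 10, 1083 in clone 11 and 1028 in the original cells. The difference was small beside those of Klf2 and Klf4 (log2 difference -0.29, SE 0.161, 95% interval -0.66 to 0.07, limma adjusted p = 0.347), though no expressing line overlapped clone 2. The other probe set of Klf13 past the filter did not share this order. It had 339.3 in clone 2 and 261.5 to 434 in the expressing lines, with a log2 difference of 0.05.

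Klf10, an early target of TGF-beta, had 1809 in clone 2, against 1022 in clone 3, 1493 in clone 9, 1383 in clone 10, 1274 in clone 11 and 1413 in the original cells. Clone 2 was above every expressing line and had 1.37 times their mean (log2 difference 0.46, SE 0.206, limma adjusted p = 0.252). Its sign was the same in all 14 alternatives. The gene had 1 probe set and lies on chromosome 15, as Aqp2 does, where 400 genes had a median difference of 0.17, whose part was not tested. Klf3, Klf5, Klf6 and Klf13 had negative differences on chromosomes with positive medians. These medians were 0.10 for the chromosome of Klf3, 0.07 for Klf5, 0.20 for Klf6 and 0.19 for Klf13. For the chromosome of Klf2 the median was -0.01, beside the -1.35 of Klf2.

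Klf15 was near the bottom of the scale in every line, with 5.86 in clone 2 and between 2.92 and 11.2 in the expressing lines. No detection calls were used here, so its absence was not shown, and no fold is given. With no filter its log2 difference was 0.06 (limma adjusted p = 0.959).

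**Figure D2:**
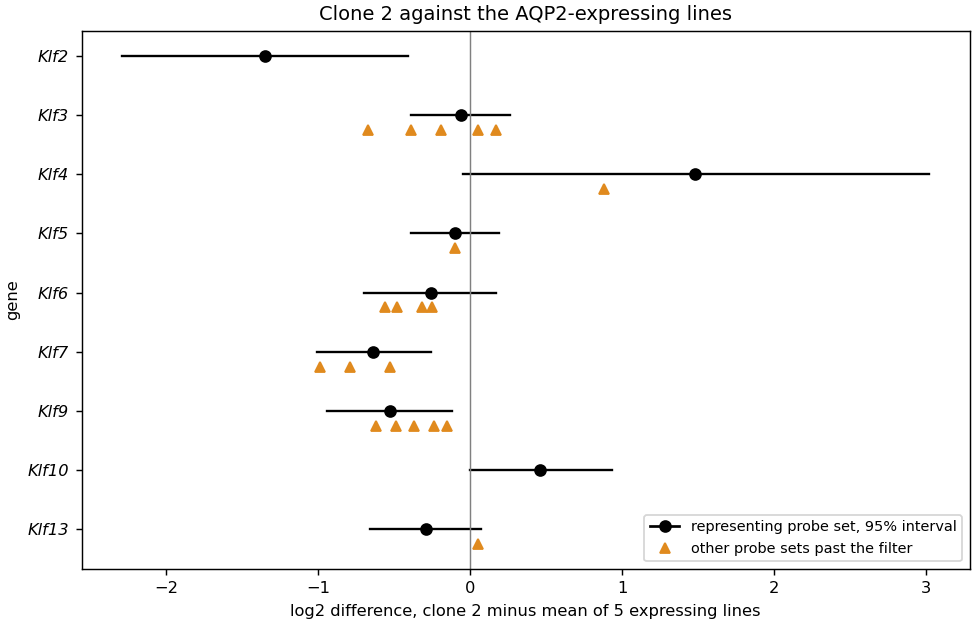
Log2 difference of clone 2 minus the mean of the 5 expressing lines for the 9 genes past the filter. Black points with lines are the representing probe set and its 95% interval from limma, and orange triangles are the gene's other probe sets past the filter. The intervals of Klf2, Klf7 and Klf9 lie below 0, before adjustment, and all plotted probe sets of Klf6, Klf7 and Klf9 lie on the negative side.

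The design text asks which transcripts follow Aqp2 over the lines. Clone 2 had an Aqp2 signal of 159.3, followed by clone 10 with 1066, clone 3 with 1698, the original cells with 3822, clone 9 with 4683 and clone 11 with 6578. No Krüppel-like factor passed the limma test of a slope on log2 Aqp2 (0 of 9, against 1.76% of 22517 probe sets), and 3 had an unadjusted p under 0.05, Klf9, Klf4 and Klf2, against 19.9% of all. By exact permutation over the 720 pairings of arrays, 2 of the 9 had an unadjusted p under 0.05 for Pearson's r, Klf9 and Klf13, against 14.9% of all. No probe set passed after adjustment, and 1/720, or 0.00139, is the smallest p these pairings give.

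Klf9 and Klf13 tracked Aqp2 most closely. For Klf9, r was 0.970 (exact permutation p = 0.00833, adjusted over all probe sets 0.227) and Spearman's rho was 0.886 (exact permutation p = 0.0333, adjusted 0.364). Its slope was 0.14 log2 units per log2 unit of Aqp2 (SE 0.0308, limma adjusted p = 0.0603). A stricter filter at the 75th percentile changes the probe sets that are fitted and adjusted over. With that filter the limma adjusted p of the slope was 0.0473 (0.0473 to 0.427 over its alternatives). For Klf13, r was 0.963 (exact permutation p = 0.00417, adjusted 0.217) and rho was 0.943 (exact permutation p = 0.0167, adjusted 0.311), with a slope of 0.07 (limma adjusted p = 0.264). Leaving out clones 2 and 11, the lines farthest from the median of Aqp2, r was 0.923 for Klf9 and 0.826 for Klf13, over 4 lines. An r at least as high as that of Klf9 was found for 0.489% of probe sets, and for Klf13 the share was 0.759%. Over the 5 expressing lines alone, r was 0.912 for Klf9 and 0.883 for Klf13, and these shares were 3.1% and 4.7%.

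The other probe sets of these genes held the pattern unevenly. For Klf9 all 5 past the filter had a positive r, between 0.433 and 0.735, and with the mean of all its probe sets r was 0.656 and the slope 0.078. For Klf13 the other probe set past the filter had an r of -0.478. With the mean of all 3 Klf13 probe sets, 1 of which had signals of at most 11.0, the r of Klf13 turned to -0.140.

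Klf4 was the member most opposed to Aqp2. Its r was -0.808 (exact permutation p = 0.0556, adjusted 0.339) and its rho was -0.943 (exact permutation p = 0.0167, adjusted 0.311), and r was -0.823 without clones 2 and 11. The slope was -0.43 (SE 0.108, limma adjusted p = 0.0766). Its signal was lower in each line with more Aqp2, except that clone 9 had less Klf4 than clone 11. Without clone 9 the slope was -0.31 and passed the test (limma adjusted p = 0.0281, and 0.0281 to 0.354 over its alternatives), with an r of -0.985. The other Klf4 probe set had an r of -0.629. Over the 6 lines, 7.44% of probe sets had an r as low as that of Klf4. Among the 5 expressing lines alone its r was -0.72, and 12.8% of probe sets had one as low.

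Klf7 had opposite relations within and across the groups. Over 6 lines its r was 0.581 (exact permutation p = 0.249, adjusted 0.558) and its rho -0.143 (exact permutation p = 0.803, adjusted 0.967). Among the 5 expressing lines it was highest in clone 10, then clone 3, the original cells, clone 9 and clone 11, the reverse of their order in Aqp2 although clones 9 and 11 were almost equal, with an r of -0.985. Neither this r (exact permutation p adjusted over all probe sets 0.558) nor the slope over these lines (-0.12, limma adjusted p = 0.46) passed its test. The permutation test has fewer pairings over 5 lines than over 6, so after adjustment it could hardly be passed. An r as low as that of Klf7 in the expressing lines was found for 0.218% of probe sets. The 3 other Klf7 probe sets gave -0.692, -0.761 and -0.510 over the same lines. The positive r over 6 lines thus came with clone 2, where both genes were lowest.

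**Figure D3:**
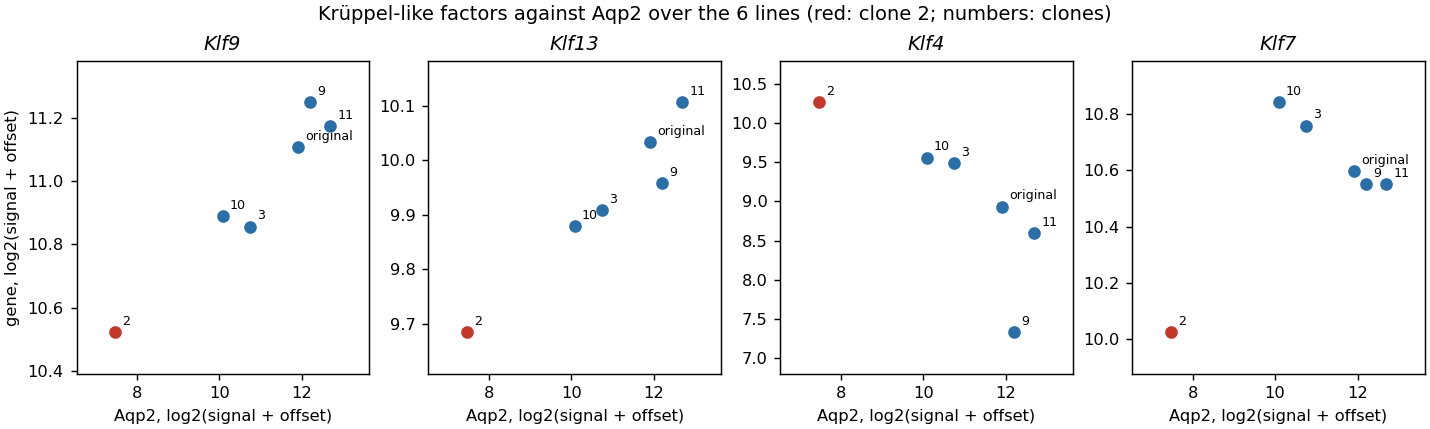
Log2(signal + offset) of Klf9, Klf13, Klf4 and Klf7 on the vertical axis against that of Aqp2 on the horizontal axis, 1 point per line, with clone 2 in red and expressing lines in blue. Klf9 (r = 0.970) and Klf13 (r = 0.963) are higher and Klf4 (r = -0.808) is lower in lines with more Aqp2, while Klf7 is lowest in clone 2 and runs down over the expressing lines.

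The remaining members showed weaker relations. Klf2 had an r of 0.778 (exact permutation p = 0.0653, adjusted 0.357), and 0.388 without clones 2 and 11. It was 0.353 without clone 2 alone and 0.791 without clone 11 alone, so the relation rested on clone 2. Klf6 had 0.583 (exact permutation p = 0.240), Klf5 0.541 (0.274) and Klf3 0.158 (0.736). Klf10 had -0.501 (0.294), and 0.465 without clones 2 and 11. The median r was 0.58 for the 9 genes and 0.05 for all probe sets tested. The value of the 9 genes leaned on clone 2. Without that line every positive r among them was lower, and those of Klf3 and Klf7 turned to -0.143 and -0.985. The r of Klf10 turned to 0.313. The members were also chosen with earlier results of these data known.

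Members were also set against each other over the 6 lines, as a description, since the lines share an origin and some pairs share the extreme value of clone 2. Of 36 pairs, the highest r was 0.897, for Klf2 with Klf6, followed by 0.896 for Klf9 with Klf13 and 0.879 for Klf2 with Klf9. Clone 9 was the highest line for all of Klf2, Klf6 and Klf9. The lowest values were all with Klf4, at -0.904 with Klf9, -0.884 with Klf6 and -0.845 with Klf2. Clone 2 was the highest line for 2 of the 9 genes and the lowest for 5, and clone 9 was the highest for 3 and the lowest for 2, Klf3 and Klf4.

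**Figure D4:**
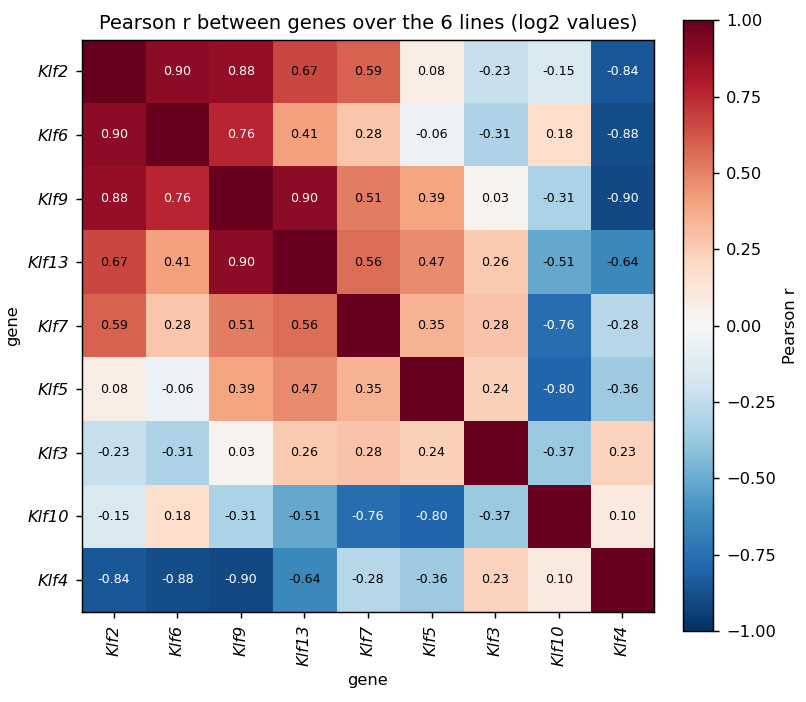
Pearson r between the log2 values of each pair of the 9 genes over the 6 lines, from blue (-1) to red (1). Klf2, Klf6 and Klf9 form a block of positive values, and Klf4 is negative with each of them, down to -0.904.

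Promoter windows are shown for Aqp2 and for Klf4, Klf9 and Klf13, the members whose signal went most closely with or against it, because CACCC and GC boxes are the sites this family can bind. RefSeq's table for assembly GRCm38.p6 held windows of 300 bases, 250 before and 50 after the gene start, for Aqp2 and 8 of the 10 members, and Klf5 and Klf10 were not among them. Capitals mark CACCC boxes (CACCC or GGGTG) and GC boxes (GGGCGG or CCGCCC), searched on both strands and counted for each motif where they overlap. The windows lie at chr15:99578806-99579105 (plus strand) for Aqp2, chr4:55532426-55532725 (minus strand) for Klf4, chr19:23140976-23141275 (plus strand) for Klf9 and chr7:63938866-63939165 (minus strand) for Klf13.
Aqp2: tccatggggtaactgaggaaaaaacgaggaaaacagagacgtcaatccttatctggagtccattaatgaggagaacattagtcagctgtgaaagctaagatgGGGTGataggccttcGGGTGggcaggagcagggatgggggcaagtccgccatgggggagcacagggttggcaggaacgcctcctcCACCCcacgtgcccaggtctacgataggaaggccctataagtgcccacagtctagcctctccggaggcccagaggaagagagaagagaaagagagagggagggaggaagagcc
Klf4: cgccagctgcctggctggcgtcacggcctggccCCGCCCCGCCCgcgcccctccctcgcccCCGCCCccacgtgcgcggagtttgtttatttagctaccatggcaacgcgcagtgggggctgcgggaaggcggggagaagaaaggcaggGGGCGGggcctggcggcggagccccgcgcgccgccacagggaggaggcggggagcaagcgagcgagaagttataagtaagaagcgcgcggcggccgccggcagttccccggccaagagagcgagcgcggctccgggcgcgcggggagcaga
Klf9: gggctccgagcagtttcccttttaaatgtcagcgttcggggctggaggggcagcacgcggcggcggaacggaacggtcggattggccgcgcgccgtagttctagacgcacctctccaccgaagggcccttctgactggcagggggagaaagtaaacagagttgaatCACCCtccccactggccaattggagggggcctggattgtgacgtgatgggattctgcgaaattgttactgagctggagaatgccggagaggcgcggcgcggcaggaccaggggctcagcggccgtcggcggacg
Klf13: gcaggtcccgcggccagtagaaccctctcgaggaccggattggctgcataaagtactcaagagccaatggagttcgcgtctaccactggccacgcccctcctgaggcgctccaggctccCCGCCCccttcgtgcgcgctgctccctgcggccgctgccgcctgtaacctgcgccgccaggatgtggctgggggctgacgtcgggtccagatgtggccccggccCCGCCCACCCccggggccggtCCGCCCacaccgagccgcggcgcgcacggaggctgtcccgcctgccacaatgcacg

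The Aqp2 window held 3 CACCC boxes and no GC box. Of 32851 windows in the table, 57.5% held a CACCC box and 9.35% held at least 3. The Klf4 window had 4 GC boxes and no CACCC box, while that of Klf9 had 1 CACCC box and that of Klf13 had 1 CACCC box and 3 GC boxes. A GC box was present in 35.7% of all windows, and 5.49% held at least 4. Each of these 4 windows also held 1 match to the core of the cAMP response element (TGACG or CGTCA), as did 20.8% of all windows in at least 1 copy. Among the members not shown, Klf2 and Klf3 also had 1 such match and Klf15 had 2, while Klf6 and Klf7 had none. Klf3 held 5 CACCC boxes (1.02% of windows held at least as many) and 6 GC boxes (1.35%), and Klf7 held 3 CACCC boxes. Such matches were thus not particular to the windows shown. These matches describe the letters only, and no binding was measured.

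By the rule for similar patterns, the genes most like Klf4 over the 6 lines, among 10342 genes past the filter, were Abcg4, a sterol transporter (r = 0.998), Ppcs, an enzyme of coenzyme A synthesis (0.997), and Lppos (0.996). Abcg4 had a signal of 142.9 in clone 2 and 64.6 to 117.3 in the expressing lines, lowest in clone 9 as Klf4 was. The genes most like Klf9 were Ankrd49 (r = 0.994), Bcar1, a docking protein of focal adhesions (0.992), and Arl3, a small GTPase of cilia that lies on chromosome 19 as Klf9 does (0.989). Bcar1 had 1109 in clone 2 and 1678 to 2388 in the expressing lines, and its slope on Aqp2 passed the test (0.20, limma adjusted p = 0.0303). With 6 points and so many genes, values this high are a ranking only.

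Other genes of the family and its surroundings came from 6 lists. Of 15 further KLF and SP factors, 13 were measured and 7 passed the filter, and none of the 7 passed the clone 2 test in either direction (limma, with 2 at an unadjusted p under 0.05, against 20.0% of all, both lower, and a median difference of -0.16). Sp1, the ubiquitous activator at GC boxes, had 6203 in clone 2 and 6967 ± 585.2 in the expressing lines (SD, n = 5), and its relative Sp3 had 2385 in clone 2 and 3046 ± 137 in the expressing lines. Klf12, another CtBP-binding repressor, was below the filter because it was low in all lines but one, and is named after its values were seen. It had 208.3 in clone 2, against 6.84 in clone 3, 11.2 in clone 9, 3.10 in clone 10, 21.5 in clone 11 and 2.69 in the original cells. The expressing signals were near or below the offset of 18.85 and were not shown to be above background, so no fold is given. With no filter, over 45037 probe sets, its log2 difference was 3.07 and passed the test. Klf12 was picked for its value in clone 2 and tested on the same values, so this call gives no support. The size of the difference, and the spread that the test uses, depend on the offset.

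No gene of the other 5 lists passed the clone 2 test. Of the cofactors, 11 of 12 passed the filter and 1 had an unadjusted p under 0.05, against 20.0% of all probe sets, with a median difference of 0.11. Ctbp1, a partner of Klf3, had 6598 in clone 2 and 5614 ± 543.4 in the expressing lines, and the deacetylase Hdac2 had 3658 in clone 2 and 3923 ± 247.9 in the expressing lines (SD, n = 5). Of the regulators of KLF genes and proteins, 15 of 17 passed the filter and 6 had an unadjusted p under 0.05 (20.0% of all), 1 higher and 5 lower, with a median of -0.27. The TGF-beta mediator Smad4 had 5293 in clone 2 and 5579 ± 1294 in the expressing lines, and the receptor Tgfbr2 had 3429 in clone 2 and 5163 ± 1172 in the expressing lines (SD, n = 5).

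Of 24 reported targets of the family, 17 passed the filter, 3 had an unadjusted p under 0.05 (20.0% of all), 2 higher and 1 lower, and the median difference was 0.08, beside -0.03 for all probe sets. E-cadherin (Cdh1) had 10765 in clone 2 and 14600 ± 1155 in the expressing lines, and Lgals3, which Klf3 is known to repress, had 10230 in clone 2 and 10800 ± 764.2 in the expressing lines (SD, n = 5). Ccl5, named after its value was seen, had 606.4 in clone 2 and 3.87 to 198.8 in the expressing lines. It passed the filter only through clone 2, so its call in the slope on Aqp2, the only 1 among the 17 targets (1.76% of all probe sets), gives no support.

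Immediate early genes, the class to which Klf2, Klf4, Klf6 and Klf10 belong in many cells, had 15 of 16 members past the filter and 1 at an unadjusted p under 0.05 (20.0% of all), lower, with a median of -0.21. Egr1 had 8935 in clone 2 and 11950 ± 1892 in the expressing lines, and Jund had 10624 in clone 2 and 10650 ± 1304 in the expressing lines (SD, n = 5). Of 10 corticosteroid-responsive genes, a class that includes Klf9 and Klf15, 7 passed the filter and 1 had an unadjusted p under 0.05 (again 20.0% of all), lower, with a median of 0.01. Errfi1 had 2748 in clone 2 and 2357 ± 168.5 in the expressing lines, and Fkbp5 had 1351 in clone 2 and 1630 ± 519.2 in the expressing lines (SD, n = 5).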

How the data were processed

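Each of 6 Affymetrix arrays gave the linear MAS5 signal intensity of its probe sets as the authors deposited it. The submitters' processing notes name Affymetrix Expression Console 1.1. Each array had a mean of 500.0 without its lowest and highest 2% of values, so the authors had scaled the arrays alike. No source used here gives further parameters. Low signals are noisy in MAS5, since it subtracts mismatch probes.

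The 64 control probe sets were left out of 45101. Symbols came from the platform annotation, updated through gene identifiers for 34741 of the 34945 probe sets with 1 gene (932 had several, 9160 none). Values were taken as log2(signal + 18.85), the 25th percentile, which understates differences of low signals. A mean signal above 85.46 was required. Tests were two-sided, using limma 3.58.1 under R 4.3.3 with eBayes and its mean-variance trend, and p-values were Benjamini-Hochberg adjusted over all probe sets past the filter. Both fits left 4 residual degrees of freedom, and clone 2 was assumed to vary like the other lines. Intervals are 95% intervals from limma, unadjusted. Correlations were tested over all 720 pairings of arrays. The number of arrays limits the precision. The check of the fits on simulated data required recovery only of the largest planted changes, which exceeded the difference of every member. It does not show that differences as small as those of the members would be found.

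All 10 members, Aqp2, up to 4 called genes per list (or the 2 of highest signal) and the 3 genes most like Klf4 and Klf9 were named by rule. The members and lists were chosen with earlier results of these data known. Alternatives were an offset of 0 or doubled, quantile normalization, median centring, other filters, eBayes without trend or robust, each line left out, and the mean of a gene's probe sets.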

Additional observations from a re-analysis of the deposited data

Results flagged for a closer look

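Klf15 in clone 3 stood apart from the other expressing lines, with a signal of 11.2 against 2.92 to 4.49. Its gap to the next line was 0.810 of the range of the 5 lines, where Dixon's critical value is 0.71. Chance gives such a flag in about 1 of 20 groups, and all these signals are below the offset of 18.85, so the value lies where MAS5 signals are noisy.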

How the results depend on the processing

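None of the 10 members passed the clone 2 test in any of the 14 alternatives, by its representing probe set or the mean of its probe sets. Klf12, which is not among the members, passed it with no filter. Klf4, Klf5, Klf6, Klf7, Klf9, Klf10 and Klf13 kept the sign of their difference in all 14. So did Klf2 in the 13 that gave it a value, since it fell below the filter at the 75th percentile. Klf3 turned to 0.027 with median centring. Of all probe sets, 560 passed (184 higher, 376 lower; 254 higher and 232 lower with median centring), against 210 with no filter and 219 without trend, and with an expressing line left out 320 (clone 3), 943 (clone 9), 344 (clone 10), 249 (clone 11) and 154 (original cells). For the slope on Aqp2 the count was 397 (230 positive, 167 negative; 158 and 185 with median centring), against 51 with no filter, 1 without trend, 3 without clone 2, 191 without clone 3, 258 without clone 9, 648 without clone 10, 0 without clone 11 and 90 without the original cells. The members past the slope test were 0, against 1 with the filter at the 75th percentile (Klf9) and 0 to 1 with a line left out (Klf4 without clone 9).

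The slope of Klf3 turned to -0.0042 with median centring, -0.014 without clone 2 and -0.0038 without the original cells, and its r to -0.078, -0.143 and -0.124. With a line left out, its slope and r reached 0.019 and 0.389 at most. Without clone 2, the slope and r of Klf7 turned to -0.12 and -0.985 (at most 0.11 and 0.794 without another line), and those of Klf10 to 0.061 and 0.313 (at least -0.091 and -0.834 without another line). With the mean of all its probe sets, the slope and r of Klf13 turned to -0.0067 and -0.140. The causes were not tested. No Krüppel-like factor passed the adjusted correlation test in any of 11 alternatives, and no probe set passed it over the 6 arrays. With a line left out, fewer pairings remain, and this test could hardly be passed. No paired analysis was possible because the clone 2 group has 1 array and the replicate numbers only name lines.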
